A study of Mus musculus with 2 samples.

Results

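The genes described here encode the proteases that cut the extracellular matrix and the proteins that hold some of those proteases in check. All protein_coding genes of the GENCODE M21 annotation with an MMP, ADAMTS, ADAMTS-like (ADAMTSL) or TIMP symbol were taken, together with Reck, Bmp1, Tll1 and Tll2. This gave 54 members of 22028 protein_coding genes and 55536 gene entries. Mmp1a matched by symbol but is annotated as a polymorphic pseudogene, had 0 reads in both libraries and was left out. By family there were 22 MMP, 19 ADAMTS, 5 ADAMTSL, 3 tolloid and 4 TIMP genes, and Reck.

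Limb tissue came from healthy B6NCrl mouse embryos of both sexes at 12.5 days, pooled from 88 embryos for replicate 1 and from 68 embryos for replicate 2. For both replicates 10 ng of RNA with added ERCC spike-in RNA was primed on poly(A) tails with oligo-dT, and the cDNA was cut by Nextera tagmentation. The labels give 1 group of 2 biological replicates with the same donor record and no treated, mutant or second-tissue group. Every p-value below therefore compares 2 pools of 1 tissue and says nothing about a condition. Whole limbs were used, so fewer cells of a type and less RNA per cell cannot be told apart.

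Matrix metalloproteinases (MMPs) are zinc enzymes made as inactive precursors. Most are secreted, and some are held at the cell membrane, where they clear collagen and other matrix around moving or rearranging cells. ADAMTS enzymes are secreted relatives that cut large proteoglycans, trim procollagens or bind to fibrillin microfibrils, whereas ADAMTSL proteins share their non-catalytic modules and have no protease domain. Tolloid proteinases remove the C-terminal propeptide of procollagens and cut the BMP antagonist chordin. The tissue inhibitors of metalloproteinases (TIMPs) block the active sites of MMPs, and Reck is a membrane-anchored inhibitor of several MMPs. In the limb these genes are known for the turnover of early matrix, the shaping of cartilage and the regression of the tissue between the digits.

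All 44 protease members share a zinc-binding site, in which 3 histidines hold the metal. It was found by translating the longest complete protein_coding transcript of each gene in the GENCODE M21 transcript sequences and searching for histidine, glutamate, 2 free residues, histidine, 5 free residues and histidine. The site was present in 22 of 22 MMP, 19 of 19 ADAMTS and 3 of 3 tolloid members, and in 0 of 5 ADAMTSL and 0 of 5 inhibitor members. The codon at position 8 of its 11 codons encoded glycine in 38 members, asparagine in 5 and serine in Adamts8. All 6 members without glycine belonged to the 7 proteoglycan-cleaving ADAMTS genes, and Adamts5 was the member of that group with glycine. The coding sequences (5′ to 3′, 33 bases) are shown for 10 members: the leading genes of the groups with the higher levels, Mmp16 for its likeness to Mmp14, and examples of each form of this codon. Capitals mark the histidine codons at positions 1, 5 and 11 and the codon at position 8.
Mmp2: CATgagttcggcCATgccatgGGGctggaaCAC
Mmp14: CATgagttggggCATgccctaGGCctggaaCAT
Mmp16: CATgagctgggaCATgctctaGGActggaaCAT
Mmp11: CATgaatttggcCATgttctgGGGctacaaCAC
Bmp1: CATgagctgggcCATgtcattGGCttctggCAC
Adamts10: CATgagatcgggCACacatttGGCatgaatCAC
Adamts5: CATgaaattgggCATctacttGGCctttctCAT
Adamts1: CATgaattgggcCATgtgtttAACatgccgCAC
Adamts15: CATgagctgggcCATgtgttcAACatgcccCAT
Adamts8: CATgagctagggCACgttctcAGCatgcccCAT
Without Adamts19, whose sequence was not compared, the other 43 sites were 43 distinct sequences. Mmp14 and Mmp16 matched at 29 of 33 bases, Bmp1 and Tll1 at 28, Mmp14 and Mmp2 at 27, Mmp2 and Mmp9 at 25, and Adamts1 and Adamts5 at 20. The cysteine switch of the MMP propeptide keeps the precursor inactive. Its exact pattern (proline, arginine, cysteine, glycine, any residue, proline, aspartate) was found in 16 of 22 MMPs and in no member of the other families. Variant forms of the switch were not searched for, so a member without this pattern may still have one.

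A narrow set of these genes carried most of the RNA. Of the 54 members 34 (63%) reached 1 TPM (a level corrected for transcript length and scaled to the same total in each library) in both libraries, against 58.1% of all protein_coding genes. Only Mmp2 and Mmp14 exceeded 100 TPM in both libraries, 7 members exceeded 50 TPM and 15 exceeded 10 TPM. The median of the detected members was 9.59 TPM, beside 22.4 TPM for detected protein_coding genes. Together the members held 959 TPM in replicate 1 and 900.2 TPM in replicate 2. Their reads were 0.198% and 0.184% of all reads assigned to genes. The 8 highest genes held 76.5% and 75.5% of the summed TPM.

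**Figure D1:**
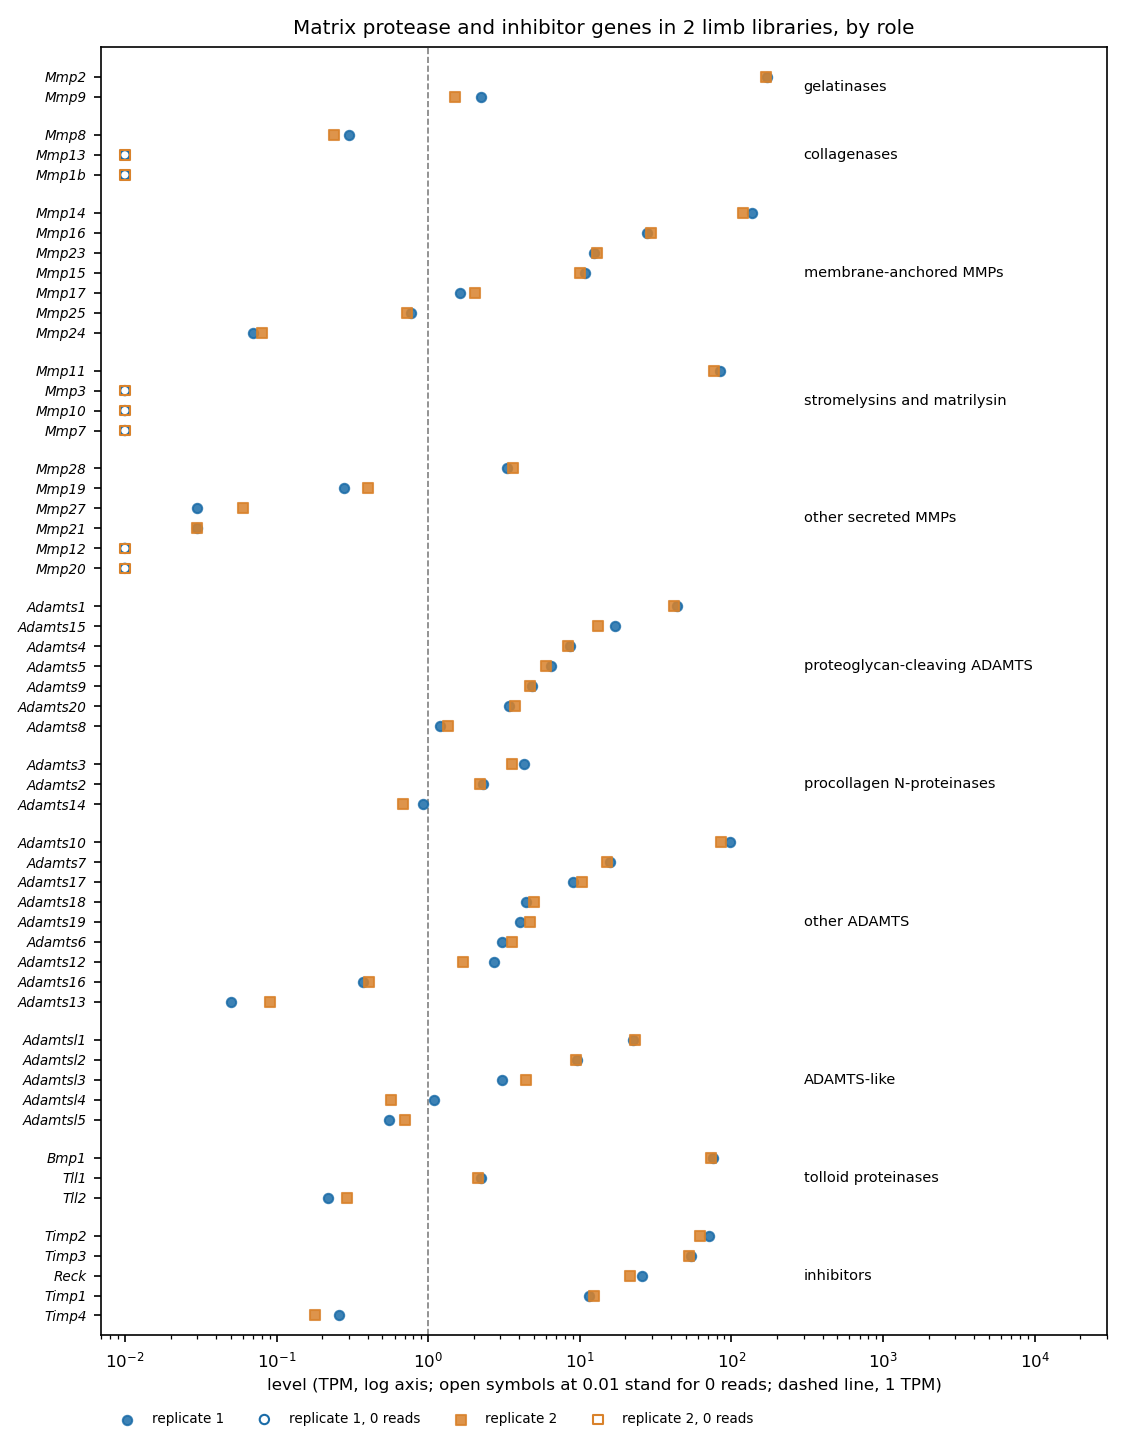
Level of each of the 54 members in TPM on a log axis, by role, with circles for replicate 1, squares for replicate 2 and open symbols for 0 reads. Mmp2 and Mmp14 lie above 100 TPM in both libraries, and 7 MMP genes have no read in either.

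Mmp2 had the highest level of all members. It encodes gelatinase A, which digests denatured collagen and basement membrane collagen, and lies on chromosome 8 (mm10, 92827291 to 92853420, plus strand). Its level was 171 TPM in replicate 1 and 168 TPM in replicate 2, from 8195 and 8346 reads, and 867 protein_coding genes stood above it. Mmp9, the other gelatinase and a known product of osteoclasts and neutrophils, stood at 2.23 and 1.5 TPM. Mmp2 thus exceeded Mmp9 by 76.5-fold and 112-fold in the 2 libraries.

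Mmp14, the membrane-anchored collagenase that activates the Mmp2 precursor at the cell surface, was second. It lies on chromosome 14 (54431612 to 54445364, plus strand) and measured 137 TPM in replicate 1 and 119 TPM in replicate 2. Its relatives with a transmembrane anchor were lower: Mmp16 at 27.7 and 29.7 TPM, Mmp15 at 10.8 and 9.99 TPM, and Mmp24 at 0.070 and 0.080 TPM. Mmp23, which is held by a segment near its N-terminus, stood at 12.5 and 13.0 TPM. The members with a lipid anchor were near or under the detection level, Mmp17 at 1.63 and 2.03 TPM and Mmp25 at 0.77 and 0.73 TPM. Mmp14 was 4.45-fold above Mmp16 and 12.3-fold above Mmp15 as geometric means, and the libraries of the 3 genes did not overlap. From counts not divided by length the mean log2 ratio of Mmp14 over Mmp15 was 2.68, against 3.62 from TPM.

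Whether a pair of genes differed by more than the libraries did was judged for 27 pairs of relatives or of enzyme and inhibitor. A pair counted as separated when both libraries gave the same order and the smaller of the 2 log2 ratios exceeded a spread. For this spread the 500 genes closest in level to the lower gene were taken, and 95 percent of them differed by less between the libraries. With 2 values a gene, the smallest two-sided p of an exact permutation test is 0.333, so none is reported. By this rule 21 of the 27 pairs were separated, 5 were not, and in 1 (Mmp11 over Mmp13) a member had no reads. Mmp2 was above Mmp14 by log2 ratios of 0.31 and 0.50 against a spread of 0.21. This pair was not separated in the authors' M4 quantification, where the log2 ratios of Mmp14 over Mmp2 were -0.13 and -0.35, nor against the 99th percentile.

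Among the stromelysins and matrilysin, Mmp11 was the only member with a read. Mmp11 encodes stromelysin-3, an MMP that is activated inside the secretory pathway and is typical of mesenchymal cells beside epithelium, and lies on chromosome 10 (75923222 to 75936496, minus strand). Its level was 83.7 TPM in replicate 1 and 77.2 TPM in replicate 2. Mmp3, Mmp10 and Mmp7 had 0 reads in both libraries. With 3 reads as the limit that a count of 0 allows, their levels were at most 0.089, 0.094 and 0.157 TPM in replicate 1, a bound for counting error only.

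The collagenase genes had few or no reads. Mmp8, the neutrophil collagenase, had 14 and 11 reads (0.30 and 0.24 TPM). Mmp13, the collagenase of hypertrophic cartilage, and Mmp1b had 0 reads, which allows at most 0.059 and 0.113 TPM in replicate 1. In the remaining secreted group Mmp28 (epilysin) was the only detected member, at 3.30 and 3.61 TPM. Mmp19 stood at 0.28 and 0.40 TPM, Mmp27 had 1 and 2 reads and Mmp21 had 1 read in each library. Mmp12, the macrophage elastase, and Mmp20, the tooth enamel protease, had 0 reads.

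All 7 proteoglycan-cleaving ADAMTS genes were detected in both libraries. These enzymes cut versican and aggrecan, and Adamts5, Adamts9 and Adamts20 are known for versican cleavage in the web between the digits. Adamts1 led the group at 43.5 TPM in replicate 1 and 41.8 TPM in replicate 2, which was 51.1% and 52.8% of its summed level. Adamts15 stood at 17.1 and 13.3 TPM, Adamts4 at 8.62 and 8.34 TPM and Adamts5 at 6.43 and 6.0 TPM. Adamts9 (4.87 and 4.73 TPM), Adamts20 (3.44 and 3.76 TPM) and Adamts8 (1.2 and 1.35 TPM) were lowest. Adamts1 exceeded Adamts5 6.87-fold and Adamts15 exceeded Adamts8 11.8-fold, both beyond the spread. From counts not divided by length the mean log2 ratios were 1.51 and 4.26, against 2.78 and 3.56 from TPM. Adamts9 was not separated from Adamts20 or from Adamts5 at this spread, although Adamts5 was above Adamts9 in both libraries. Adamts9 and Adamts5 were separated with M4 and from counts not divided by length, where the log2 ratios of Adamts9 over Adamts5 were -1.65 and -1.77.

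These pairs are also neighbours in the genome. Adamts1 and Adamts5 lie side by side on chromosome 16 with 53059 bases between them, and Adamts15 and Adamts8 on chromosome 9 with 20109 bases between them. No protein_coding gene lies within either interval. The neighbours at each locus therefore differed in level by the ratios given above.

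The procollagen N-proteinases, which remove the N-terminal propeptide of fibrillar procollagens, were low. Adamts3 measured 4.29 and 3.55 TPM, Adamts2 2.31 and 2.21 TPM, and Adamts14 0.92 and 0.68 TPM. The order was the same in both libraries, but neither Adamts2 with Adamts3 nor Adamts2 with Adamts14 was separated beyond the spread. Adamts2 and Adamts14 were separated from counts not divided by length, on the log2(TPM + 1) scale and without replicate 1, but not with M4.

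Bmp1, which encodes the main procollagen C-proteinase, was far above its relatives. It lies on chromosome 14 (70474558 to 70520234, minus strand) and measured 75.2 TPM in replicate 1 and 73.7 TPM in replicate 2. Tll1 stood at 2.22 and 2.12 TPM and Tll2 at 0.22 and 0.29 TPM. Bmp1 exceeded Tll1 34.3-fold and Tll1 exceeded Tll2 8.59-fold, the latter from only 20 and 26 reads of Tll2 and not beyond the 99th percentile of the spread. The 3 procollagen N-proteinases summed to 6.98 ± 0.764 TPM and the 3 tolloid members to 76.9 ± 1.11 TPM (mean ± SD, n = 2).

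The other ADAMTS genes were led by Adamts10, which binds to fibrillin microfibrils. Its level was 97.3 TPM in replicate 1 and 85.1 TPM in replicate 2, rank 3 among the members (chromosome 17, 33524204 to 33553782, plus strand). Its close relative Adamts6 stood at 3.08 and 3.56 TPM, so Adamts10 was 27.5-fold higher as a geometric mean. From counts not divided by length the mean log2 ratio of Adamts6 over Adamts10 was -3.62, against -4.78 from TPM. Adamts7 measured 15.8 and 15.1 TPM and its relative Adamts12 2.73 and 1.71 TPM, and both can degrade cartilage oligomeric matrix protein. Adamts17 measured 9.08 and 10.3 TPM, Adamts18 4.41 and 5.01 TPM and Adamts19 4.04 and 4.68 TPM. Adamts16 (0.37 and 0.41 TPM) and Adamts13, the plasma protease of von Willebrand factor (0.050 and 0.090 TPM), were under the detection level. With M4 the means of Adamts12 and Adamts18 were 0.568 and 0.637 times those with M21, and the mean log2 ratio of Adamts12 over Adamts7 was -3.70 there against -2.84 here.

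Of the ADAMTSL genes 3 of 5 were detected. Adamtsl1 led at 22.4 and 23.3 TPM, Adamtsl2, a microfibril-associated regulator of TGF-beta, stood at 9.57 and 9.40 TPM, and Adamtsl3 at 3.05 and 4.40 TPM. Adamtsl4 was above the detection level in replicate 1 only (1.09 and 0.57 TPM), and Adamtsl5 in neither (0.55 and 0.70 TPM). Adamtsl1 exceeded Adamtsl3 6.23-fold and Adamtsl2 exceeded Adamtsl4 12.0-fold.

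Timp2 and Timp3 were the main inhibitor genes. Timp2, which also takes part in the activation of Mmp2 by Mmp14, measured 71.4 TPM in replicate 1 and 61.9 TPM in replicate 2 (chromosome 11, 118301069 to 118355740, minus strand). Timp3, which binds to the matrix and also inhibits ADAMTS enzymes, measured 54.2 and 52.8 TPM (chromosome 10, 86300372 to 86349506, plus strand). Their log2 ratio of 0.40 and 0.23 did not exceed the spread of 0.25 in both libraries, so they were not separated. Reck stood at 25.9 and 21.4 TPM, Timp1 at 11.5 and 12.4 TPM and Timp4 at 0.26 and 0.18 TPM. Timp3 exceeded Timp1 4.47-fold and Timp4 by 208-fold and 294-fold, the last resting on 12 and 19 reads of Timp4. The mean log2 ratio of Timp3 over Timp1 was 4.72 from counts not divided by length against 2.16 from TPM, and that of Timp3 over Timp4 was 7.17 with M4 against 7.95.

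Timp2 and Reck were lower than Mmp14, and Timp2 was lower than Mmp2. Mmp14 exceeded Timp2 1.93-fold in replicate 1 and 1.92-fold in replicate 2 and exceeded Reck 5.31-fold and 5.54-fold. Mmp2 exceeded Timp2 2.39-fold and 2.71-fold. From counts not divided by length the mean log2 ratio of Mmp14 was 0.35 over Timp2 and 1.58 over Reck, against 0.94 and 2.44 from TPM. Mmp9, another target of these inhibitors, was below both. Summed over Timp1 to Timp4 and Reck, inhibitor RNA was 156 ± 10.2 TPM, and summed over the 44 proteases it was 736 ± 32.3 TPM (mean ± SD, n = 2). The ratio was 0.215 in replicate 1 and 0.209 in replicate 2, a description of RNA and not of protein or activity. Its protease sum took in ADAMTS (221 ± 12.6 TPM) and tolloid members (76.9 ± 1.11 TPM), and inhibitors were not matched to their targets.

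**Figure D2:**
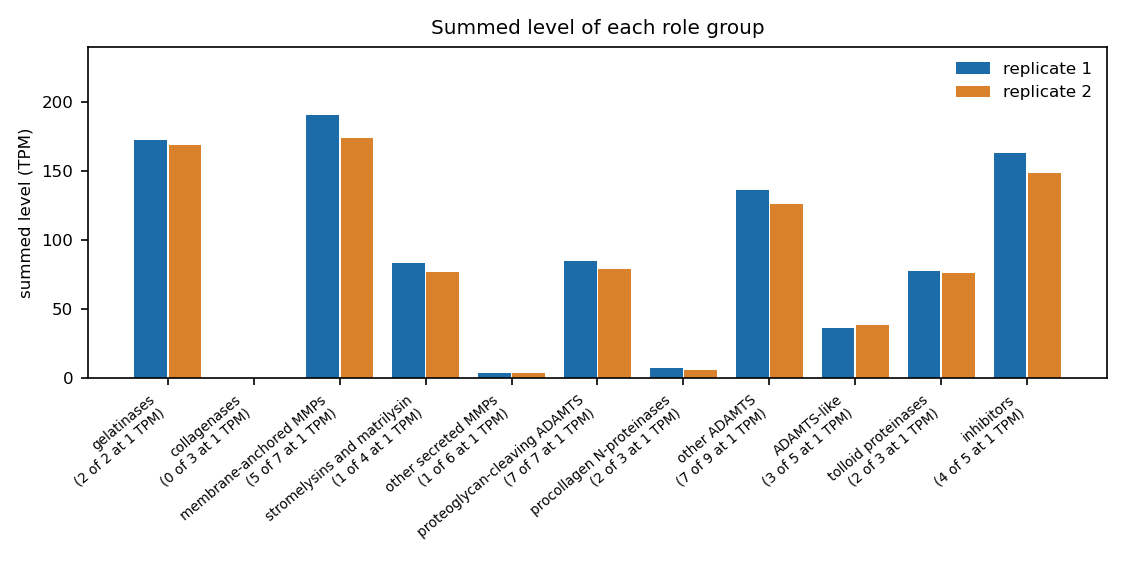
Summed TPM of each role group, with a bar for each library. The membrane-anchored MMPs (183 ± 11.8 TPM), the gelatinases (171 ± 2.43 TPM) and the inhibitors (156 ± 10.2 TPM) are the highest groups, and the collagenases (0.27 TPM) do not rise above the axis.

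Ordered by mean level, only 5 of the 33 neighbouring pairs among the 34 detected members were separated. These were Mmp2 above Mmp14, Mmp14 above Adamts10, Timp3 above Adamts1, Adamts1 above Mmp16 and Adamtsl1 above Adamts7. In 12 neighbouring pairs the order was opposite in 1 library. No neighbouring pair below Adamts7 was separated.

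The MMP genes without reads lie together. A stretch of chromosome 9 (7272514 to 7699585, 427.1 kb) holds 9 MMP genes and no other protein_coding gene, in the order Mmp13, Mmp12, Mmp1b, Mmp3, Mmp10, Mmp8, Mmp27, Mmp20 and Mmp7. Of these 7 had 0 reads in both libraries, and the whole stretch held 15 and 13 reads. Among the 13 MMP genes elsewhere in the genome 9 were detected and none had 0 reads.

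Promoters of the members were read from the RefSeq table for GRCm38.p6, as 300 bases from 250 before to 50 after the annotated start. The table matched 38 of 54 members with 41 promoters, and neither Mmp2 nor Adamts10 was among them. It covered 20 of the 34 detected members and 18 of the 20 under 1 TPM. Members detected in both libraries had a median of 22 CpG dinucleotides (21 promoters) and members under 1 TPM a median of 2.5 (20 promoters), beside 20 and 3 for all protein_coding genes in the same classes. The 11 promoters of the chromosome 9 stretch held 0 to 7 CpG, with a median of 1, whereas the 9 promoters of other members under 1 TPM held 2 to 44, with a median of 20. Outside chromosome 9, Adamts13, Mmp21 and Timp4 had 2 CpG each, and Mmp24, with 44 CpG, was under 1 TPM as well. The motifs below, the windows and the promoters printed were chosen after the levels were seen, so they describe these genes and carry no test.

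**Figure D3:**
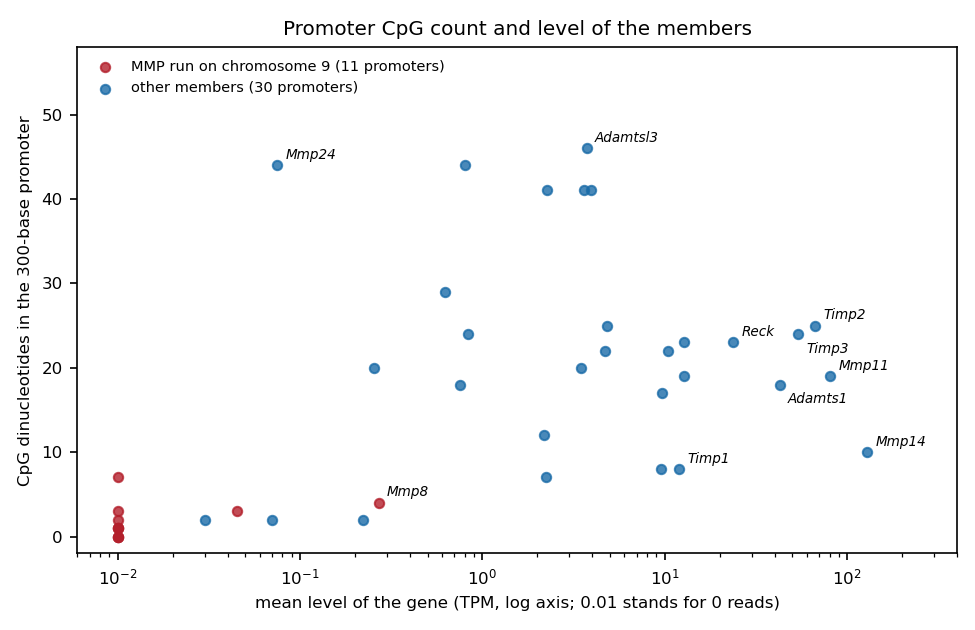
CpG dinucleotides in each 300-base promoter against the mean TPM of its gene on a log axis, with 0.01 standing for 0 reads. The 11 promoters of the chromosome 9 stretch lie at 7 CpG or fewer, and Mmp24 is a CpG-rich promoter with almost no reads.

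An AP-1 motif, TGACTCA or its reverse complement TGAGTCA, occurred in 6 of the 11 promoters of the chromosome 9 stretch (54.5%), in none of the other 30 member promoters and in 4.65% of all 20150 protein_coding promoters. The genes were Mmp10, Mmp12, Mmp13, Mmp1b, Mmp3 and Mmp7, and each had 0 reads. TATAAA on the gene's strand within bases 201 to 250 of the window, the 50 bases before the start, occurred in 5 of the 11 (45.5%), in 2 of the others (Adamts1 and Adamtsl2) and in 3.06% of all promoters. Among the 7298 promoters of protein_coding genes under 1 TPM the shares were higher, 6.85% for the AP-1 motif and 6.17% for TATAAA. A match says only that these letters are present. The promoters shown are 3: Mmp14 as the highest member in the table, and Mmp13 and Mmp3 as genes with 0 reads and both motifs. They lie at chr14:54431348-54431647, chr9:7272264-7272563 and chr9:7445572-7445871, all on the plus strand. Capitals mark every CpG in Mmp14 and the AP-1 and TATAAA motifs in Mmp13 and Mmp3.
Mmp14: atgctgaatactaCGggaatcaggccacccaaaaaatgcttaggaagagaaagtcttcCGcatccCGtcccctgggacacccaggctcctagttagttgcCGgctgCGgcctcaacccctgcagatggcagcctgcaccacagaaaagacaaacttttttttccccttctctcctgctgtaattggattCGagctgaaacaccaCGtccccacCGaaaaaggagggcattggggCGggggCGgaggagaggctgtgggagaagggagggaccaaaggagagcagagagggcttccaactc
Mmp13: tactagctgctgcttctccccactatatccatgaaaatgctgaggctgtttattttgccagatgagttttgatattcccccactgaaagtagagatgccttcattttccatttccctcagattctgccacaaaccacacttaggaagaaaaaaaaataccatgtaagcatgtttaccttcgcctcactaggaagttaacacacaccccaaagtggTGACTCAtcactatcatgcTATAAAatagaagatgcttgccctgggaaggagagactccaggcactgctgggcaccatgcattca
Mmp3: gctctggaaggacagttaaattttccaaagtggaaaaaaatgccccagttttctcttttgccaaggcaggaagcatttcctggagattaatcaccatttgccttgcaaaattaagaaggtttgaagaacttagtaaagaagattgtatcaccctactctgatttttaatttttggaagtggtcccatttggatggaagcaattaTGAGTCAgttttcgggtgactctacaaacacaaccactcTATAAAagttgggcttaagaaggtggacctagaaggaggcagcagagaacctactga
Mmp14 has 10 CpG and a GC content of 56%, and Mmp13 and Mmp3 have 1 CpG each with GC contents of 43.7% and 40%.

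The transcript tables show how much of each level came from transcripts annotated as protein_coding. For 28 of the 34 detected members the leading transcript was protein_coding, and for 15 the protein_coding transcripts held at least 90% of the summed TPM. Mmp2 (99.7%), Timp2 (100%), Reck (98.2%), Mmp11 (95.5%) and Mmp14 (93.6%) were of this kind. In 7 members the protein_coding share of TPM was under 50%, and TPM weights short transcripts more than counts do. By counts not divided by length, a single protein_coding transcript held 91.1% in Adamtsl3, 73.6% in Adamts20, 57.9% in Mmp23 and 52.5% in Adamts19. In Adamts10, Adamts6 and Adamts9 the highest such share was 21.7%, 23.3% and 36.1%, all as means of both libraries.

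Adamts10 and Bmp1 stood out among the highest genes. Adamts10 has 15 transcripts in M21, of which 3 are protein_coding, and these held 28.8% of its level in replicate 1 and 24.5% in replicate 2. Retained-intron transcripts held 50.9 ± 1.53% and transcripts annotated for nonsense-mediated decay 21.3 ± 3.15% (mean ± SD, n = 2). Its leading transcript, Adamts10-208, had a retained intron and 18.2 ± 2.18%. For Bmp1 the only protein_coding transcript, Bmp1-201, encodes the long tolloid form of 991 residues and held 59.9 ± 0.318%, and Bmp1-205, annotated for nonsense-mediated decay, held 30.2% and 28.7%. The short form of Bmp1 has no protein_coding entry of its own in this annotation and was not measured here.

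Several lower members were split in the same way. The leading transcript of Adamts6, annotated for nonsense-mediated decay, held 51.6% and 61.6% of its level, and its protein_coding transcripts held 33.8% and 11.8%. By TPM, retained-intron transcripts led in Adamts17, Adamts9 and Adamts20, and a processed transcript led in Adamtsl3. By counts not divided by length, a protein_coding transcript led in each of these genes. The processed transcript Adamtsl3-201 is 440 bases long and had 10.87 and 18.43 reads. The protein_coding Adamtsl3-203 had 167.42 and 203.73 reads. Mmp16-201, the full-length form, held 34.7 ± 0.837% by TPM, and 2 shorter protein_coding transcripts and the retained introns held most of the rest. The share of Mmp16-201 was 68% by counts not divided by length. Timp1 was divided between Timp1-201 and Timp1-202, which share a coding length of 615 bases, at 55.4% and 44.6% in replicate 1 and 44.2% and 55.8% in replicate 2, so their order was not resolved. The leading transcript was the same in both libraries in 30 of 34 members, the exceptions being Adamts10, Timp1, Adamts17 and Adamts20. By expected counts, which are not divided by length, a protein_coding transcript led in 32 members.

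**Figure D4:**
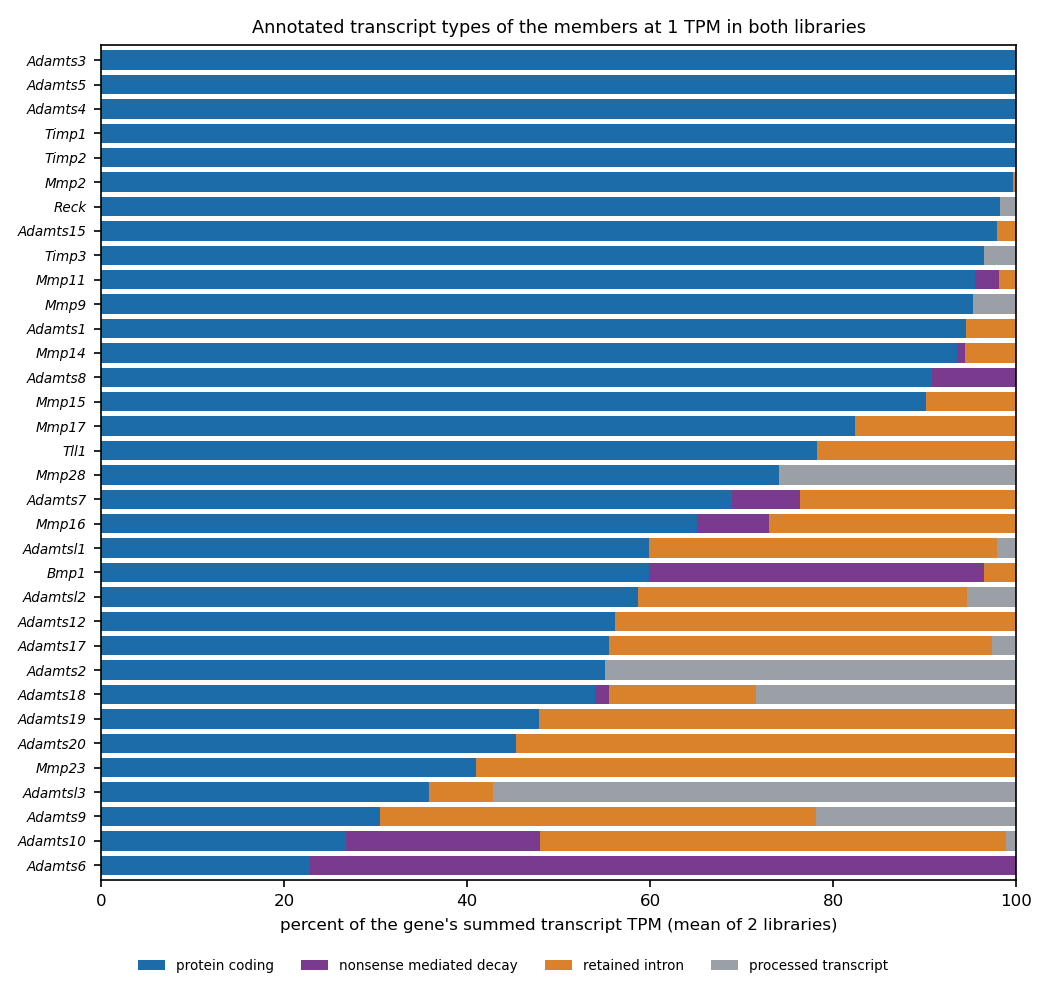
Percent of each detected member's summed transcript TPM (mean of both libraries) by annotated type of transcript. Timp2, Mmp2 and Reck are almost entirely protein_coding, and Adamts6, Adamts10 and Adamts9 have the smallest protein_coding shares.

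Counting protein_coding transcripts alone, 33 members reached 1 TPM in both libraries, and Adamts6 no longer did. Adamts10 took rank 8 in place of rank 3, at 28.1 and 20.9 TPM, and Bmp1 stood at rank 6 with 44.9 and 44.3 TPM. Mmp2, Mmp14, Mmp11, Timp2 and Timp3 were then the 5 highest members. The ratio of inhibitors to proteases was 0.268 and 0.262 on this count. This count was added after the data were seen.

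The 2 libraries were compared to see whether any member differed between the pools. A gene was called at an adjusted p under 0.05 (exact binomial test on read counts with edgeR's TMM library sizes, Benjamini-Hochberg adjustment over 15926 genes) and at least 2-fold in TPM. With 1 library a side this p covers counting error alone, takes reads as independent molecules and does not measure the spread between pools. None of the 34 tested members was called, beside 1.02% of all genes. At an unadjusted p under 0.05 there were 13 members, or 14 with DESeq2's size factors, beside 29.5% of all genes. At an adjusted p under 0.05 and any fold there were 9 members of 34, beside 19.0% of all genes. Only Adamts12 differed by at least 1.5-fold in TPM, beside 7.85% of all genes. The median absolute log2 difference was 0.12 for the members and 0.12 for all genes.

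The 9 members were Mmp14, Adamts10, Timp2, Reck, Adamtsl1, Adamts15, Adamts17, Adamts12 and Mmp9. All 9 had more reads in replicate 1, as did 55.1% of the 3022 genes of all kinds at this threshold. By TPM 7 were higher in replicate 1, while Adamtsl1 and Adamts17 were higher in replicate 2, where their effective lengths in the tables were shorter. Reck had 2215 and 1827 reads (log2 TPM ratio of replicate 2 over replicate 1 -0.27, exact binomial adjusted p = 2.38e-09) and Adamts15 had 1896 and 1534 (-0.37, adjusted p = 1.84e-09). Adamts12 had 289 and 198 reads (-0.68, exact binomial adjusted p = 0.000328). Mmp2 did not pass (-0.023, exact binomial adjusted p = 0.947).

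Summed levels of several gene lists differed between the libraries as well, though few genes in them were called. The summed level of 7 cartilage markers was 898 TPM in replicate 1 and 756 TPM in replicate 2. Acan and Matn1 among them were called, and Sox9 measured 197 and 195 TPM. Macrophage markers summed to 33.6 and 28.7 TPM, epithelial markers to 292 and 268 TPM and the collagen and fibril genes to 2435 and 2227 TPM. Col2a1 (426 and 344 TPM) counts in both the cartilage and the collagen sums, so these are not independent. No macrophage or epithelial marker was called. The macrophage marker Adgre1 was higher in replicate 2 by TPM (2.65 and 3.23) but not by reads (164 and 151). Endothelial markers summed to 107.7 and 106.6 TPM and muscle markers to 506.3 and 484.1 TPM, with none called. The 8 limb mesenchyme markers summed to 1019 and 1086 TPM, but not all in 1 direction. Tbx5, a forelimb factor, measured 39.96 and 28.38 TPM, whereas the hindlimb factors Pitx1 (136 and 164 TPM) and Tbx4 (30.6 and 35.1 TPM) were higher in replicate 2, none of the 3 by 2-fold. The part of these shifts in the differences of the members was not tested.

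**Figure D5:**
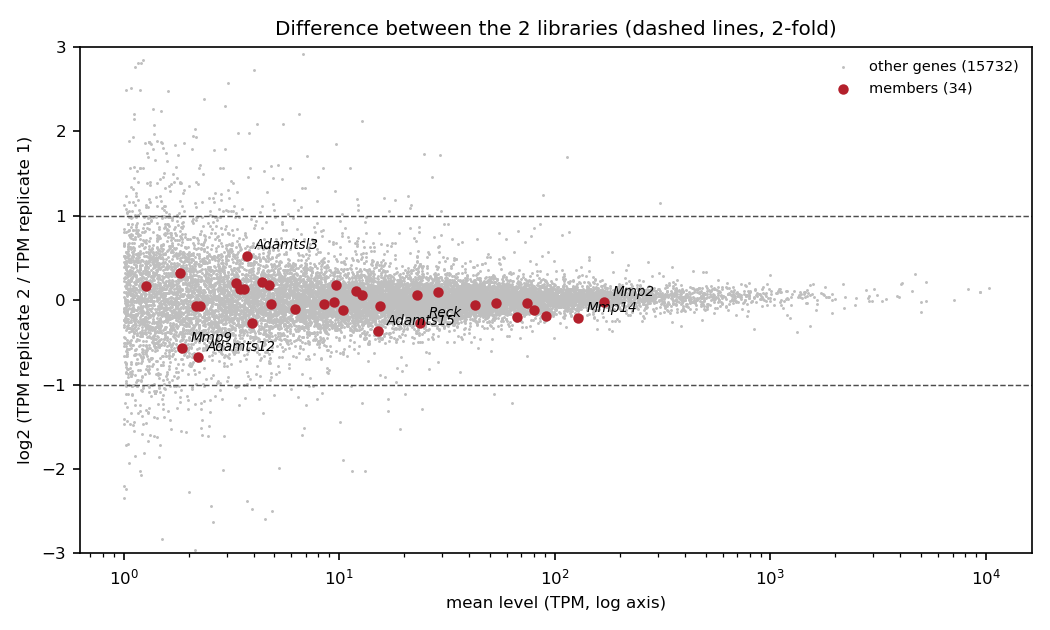
Log2 ratio of TPM between replicate 2 and replicate 1 against mean TPM (log axis) for the 34 members and 15732 other genes with a level above 0 in both libraries, of which 16 lie outside the axis. No member reaches the 2-fold lines, and Adamts12 is the farthest of those named.

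The tissue label was checked against markers. All 8 limb mesenchyme markers were detected, led by Msx1 (361 and 389 TPM) and Prrx1 (159.5 and 154.8 TPM), with Tbx4 lowest by mean. Cartilage (7 of 7 markers, led by Col2a1 and Sox9), muscle (4 of 4, led by Actc1 and Myog), epithelium (5 of 5, led by Krt14 and Krt5), endothelium (5 of 5, led by Plvap and Pecam1) and macrophages (5 of 5, led by C1qb and Csf1r) were present as well. Of 7 osteoclast and neutrophil markers 4 reached 1 TPM in both libraries. These were Ctsk (7.89 and 6.28 TPM), Acp5 (6.04 and 7.89 TPM), S100a8 (5.73 and 5.7 TPM) and Mpo (2.05 and 1.32 TPM). The others did not: Ocstamp stood at 0.03 and 0.01 TPM, Elane had 2 and 0 reads and Ly6g had 0 reads. Mmp9, known from osteoclasts and neutrophils, and Mmp8, the neutrophil collagenase, stood at the low levels given above. The cells of origin of the members were not tested.

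Known substrates of these enzymes were measured in the same libraries. All 16 collagen and fibril genes were detected, with a median of 50.1 TPM, led by Col3a1 (695 and 689 TPM) and Col2a1 (426 and 344 TPM), with Comp lowest (4.52 and 2.24 TPM). Comp was the member of this list that was called between libraries. A list of 6 genes for large proteoglycans and a link protein had a median of 9.16 TPM, and 4 of them were detected. Vcan, the substrate of the ADAMTS group led by Adamts1, stood at 92.8 and 102.8 TPM. Hapln1, its link protein, stood at 16.8 and 10.2 TPM, and Bcan was lowest at 0.51 and 0.10 TPM. Acan, which like Hapln1 is also among the cartilage markers, was called, at 8.07 and 3.90 TPM.

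Partners in activation and clearance were measured too. Of 11 genes of activators, convertases and the plasmin system 8 were detected and none was called, led by the protease inhibitor gene Serpine2 (140.7 and 148 TPM) and the convertase gene Pcsk7 (17.7 and 19.1 TPM), with plasminogen (Plg) at 0.080 and 0.040 TPM. Furin, which activates Mmp11 and the membrane-anchored MMPs, stood at 8.33 and 10.5 TPM. Among enhancers, receptors and clearance genes 9 of 11 found were detected and none was called, led by Bsg (528 and 542 TPM) and Sparc (381 and 354 TPM), with Lrp2 lowest at 0 and 0.010 TPM. Pcolce, the enhancer of Bmp1, stood at 105.8 and 102 TPM. Of 14 other metalloproteinase genes 11 were detected and none was called, led by the sheddase genes Adam10 (54.9 and 50.2 TPM) and Adam17 (38.8 and 37.9 TPM), and Mep1a and Mep1b had 0 reads.

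Some members overlap genes on the opposite strand, and the strand setting of the counting is not given in the sources used here. Expected counts were not whole numbers in 6 members, Timp3, Adamts9, Mmp28, Adamts8, Mmp19 and Mmp24, all with such an overlap. In replicate 1 Timp3 had 4789.84 and Syn3 250.16, which add to a whole number. Reads of this pair were therefore shared across strands. Timp3 shares 1733 exon bases (21.3% of its own) with Syn3, which stood at 3.42 and 3.25 TPM. Timp1 and Timp4 lie inside Syn1 and Syn2. Mmp19 shares 22.3% of its exon bases with Tmem198b (17.7 and 18.7 TPM) and Mmp24 13.6% with BC029722 (10.2 and 10.7 TPM), so the low values of Mmp19 and Mmp24 are uncertain. Mmp28 shares 12% with 1700020L24Rik, Adamts8 10.6% with Gm29724, Adamts9 9.18% with A730049H05Rik and Mmp11 5.58% with Chchd10.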

How the data were processed

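Expected counts (estimated reads of each gene and transcript) were made and deposited by the authors, in the RSEM column layout. TPM and FPKM were also computed and deposited by the authors. Per the labels and the notes deposited with each sample, reads were quantified on mm10 with GENCODE M21 and M4. The sources used here give no aligner, program version or strand setting. Levels are deposited M21 TPM, over all entries including spike-ins (7.34% and 5.13% of TPM). FPKM and M4 were alternatives.

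Total expected counts over genes were 29633457 and 30118921, and a count of 0 was given a limit of 3 reads. Counts were rounded and tested with an exact two-sided binomial test at genes with a mean of at least 1 TPM, using edgeR 4.0.16 TMM library sizes. DESeq2 1.42.0 size factors were an alternative. The test was checked on simulated data. Every member at a mean of 1 TPM was named with both values, the rest were accounted for by reads, and the 2 highest genes and the lowest of each pathway list were named. Furin and Pcolce were named outside this rule, after their values were seen. The members and lists were chosen with earlier results of these data known. Nothing in the labels says whether the replicates share more than strain and donor record.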

Additional observations from a re-analysis of the deposited data

How the results depend on the processing

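The number of members detected was 34 here, 30 to 38 with a level of 2 or 0.5 TPM, with M4, FPKM, nuclear rescaling, protein_coding transcripts only or 1 library left out, and 20 at 5 TPM. Leaving out replicate 1 or 2 gave 34 and 35. No member was called between libraries under 5 of the 6 alternatives, and Adamts12 was at 1.5-fold. Pairs separated numbered 17 to 23. The 99th percentile ended 4 calls (Mmp2 over Mmp14, Tll1 over Tll2, Adamts7 over Adamts12 and Adamts17 over Adamts19), M4 ended that of Mmp2 over Mmp14, and none of the 21 reversed. The fold moved by over 1.5 times in 7 separated pairs from counts not divided by length, in 7 on the log2(TPM + 1) scale and in 3 with M4, where the mean log2 ratio of Adamts18 over Adamts16 was 2.87 against 3.59. The ratio of inhibitors to proteases was 0.212, and it was 0.233 with M4, 0.269 from counts not divided by length and 0.265 from protein_coding transcripts only, an alternative added after the data were seen. Without replicate 1 or 2 it was 0.209 and 0.215. By counts 32 and not 28 leading transcripts were protein_coding. TPM over nuclear genes was 1.09 to 1.10 times the deposited value. No paired analysis was possible because there is 1 group. Below about 10 reads counting error limits the levels.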
